A study of Mus musculus with 12 samples.

Results

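Expression of 10 genes that low oxygen is known to induce, and that lie outside the glycolytic pathway, was examined in transduced mouse bone marrow cells. The genes were Egln3, P4ha1, P4ha2, Ero1a, Bnip3, Vegfa, Ndrg1, Kdm3a, Ankrd37 and Narf. They were taken as the probe sets annotated to exactly 1 of these symbols, with the brightest probe set standing for each gene, out of 19938 genes with a probe set annotated to a single symbol. The set was chosen by its log2 values on the arrays of the fusion constructs and of the empty vector, so values for that contrast are given as a description without a test. Differences among the fusion constructs were not used in choosing the genes and were tested.

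The study measured gene expression by array in marrow cells that carried a retroviral construct, 1 of 4, and each construct had 3 biological replicates. The first is a fusion of CALM residues 400 to 648 with AF10 residues 677 to 758, called here the minimal fusion. The second is CALM-AF10 ΔOM-LZ (ΔOM-LZ for short), which lacks the OM-LZ part of AF10, the stretch known to bind the histone methyltransferase DOT1L. CALM-AF10 itself, a fusion protein found in acute leukaemias, is the third, and the empty vector MIG served as the control. All 4 groups shared the remaining steps. The marrow came from adult mice of the strain labelled C57/BL6/C3H that had received 5-fluorouracil, which enriches for stem and progenitor cells, and it was stimulated in culture for 48 h. The cells were transduced on a layer of GFP+E86 virus producers, irradiated with 40 Gy, with cytokines and protamine sulfate at 5 µg/ml, and were then kept in medium with cytokines for a further 48 h. GFP-positive cells were sorted and RNA was taken 96 h after transduction, so each array reports on a mixed population of marrow cells and not on a clone. No label gives an oxygen level, whether animals were pooled, or what a replicate number shares across constructs.

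Cells sense oxygen through hypoxia-inducible factors (HIFs). While oxygen is present, prolyl hydroxylases modify the alpha subunit of the factor and the von Hippel-Lindau protein marks it for degradation. When oxygen falls, the alpha subunit persists, pairs with Arnt and binds DNA at the short core letters ACGTG or GCGTG near its target genes, which serve glycolysis, collagen folding, mitochondrial turnover and vessel growth. Marrow is known for regions of low oxygen in which stem and progenitor cells reside, and several of these genes also answer to signals other than oxygen.

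The arrays carried the marks of blood cells. All 8 defining blood cell genes measured, among them Ptprc and Spi1, lay above the highest array median of 6.69 on every array, with log2 values of 9.67 to 12.82. Of 7 T and NK cell genes 0 did so, and of 6 B cell genes 1 did. Of 13 genes of fibroblasts and producer lines 6 did, and the mean level of that list ran from 6.49 to 6.73 in fusion arrays and from 6.52 to 6.72 in MIG arrays. Array medians ran from 6.58 to 6.69 over the 12 arrays. No pair of arrays held identical values.

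Upstream sequence is shown for the genes whose windows carry the ACGTG letters, since 7 of the 9 genes with a window carry them. RefSeq windows of mouse build GRCm38.p6 were available for 9 of the 10 genes (all but Ndrg1), and the 250 bases before each annotated start were searched on both strands. The letters ACGTG occurred in 7 of the 9 genes, against 18.5% of the 27025 genes of the RefSeq table and 12 of 24 genes of the glycolysis list. GCGTG occurred in 8 of the 9, against 30.9% of all genes and 13 of 24 glycolysis genes. Of 77 other low-oxygen genes 54 had a window, too small a share to check that list. Among those 54, ACGTG occurred in 23 and GCGTG in 40. The longer palindrome CACGTG, in which ACGTG reads on both strands, occurred in 1, Bnip3, against 6.86% of all genes. Vegfa has 2 annotated starts and carried ACGTG only before the second, and neither Kdm3a, with 3 windows, nor Narf carried it in the bases searched. These genes are known as low-oxygen targets partly because such letters were found near them, so the shares are a description and no site is claimed.

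The 250 bases before the start are printed for 4 genes. They lie at chr7:138909507-138909756 on the minus strand for Bnip3, chr11:54100674-54100923 on the plus strand for P4ha2, chr12:54203875-54204124 on the minus strand for Egln3 and chr14:45318573-45318822 on the minus strand for Ero1a. Capitals mark ACGTG, its reverse complement CACGT, or in Bnip3 the palindrome that holds both, and each sequence reads 5′ to 3′ on the gene's strand.
Bnip3: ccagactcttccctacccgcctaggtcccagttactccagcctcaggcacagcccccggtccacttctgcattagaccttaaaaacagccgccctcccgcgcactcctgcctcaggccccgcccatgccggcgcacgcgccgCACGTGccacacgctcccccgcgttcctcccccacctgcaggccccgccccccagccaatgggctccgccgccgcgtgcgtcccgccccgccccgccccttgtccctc
P4ha2: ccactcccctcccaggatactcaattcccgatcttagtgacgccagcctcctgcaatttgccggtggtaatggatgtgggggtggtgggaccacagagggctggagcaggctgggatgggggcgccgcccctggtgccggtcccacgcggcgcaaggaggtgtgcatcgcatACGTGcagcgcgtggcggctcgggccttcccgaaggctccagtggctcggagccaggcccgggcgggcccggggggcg
Egln3: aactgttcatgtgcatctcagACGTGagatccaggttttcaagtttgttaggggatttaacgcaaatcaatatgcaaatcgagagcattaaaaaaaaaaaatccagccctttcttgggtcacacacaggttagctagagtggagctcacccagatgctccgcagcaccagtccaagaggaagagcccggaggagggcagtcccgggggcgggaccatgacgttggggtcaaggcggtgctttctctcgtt
Ero1a: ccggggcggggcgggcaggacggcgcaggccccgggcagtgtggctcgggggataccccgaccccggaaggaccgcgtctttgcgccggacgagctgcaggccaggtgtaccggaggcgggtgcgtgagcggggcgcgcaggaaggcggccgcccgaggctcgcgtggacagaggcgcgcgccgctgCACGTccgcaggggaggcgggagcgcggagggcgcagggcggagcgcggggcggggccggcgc
The match begins 108 bases before the start in Bnip3, 78 in P4ha2, 229 in Egln3 and 63 in Ero1a. Stretches of 30 bases around the matches are printed for the other genes with a match near a single annotated start. Ankrd37 has a match 241 and another 6 bases before its start, at chr8:46000071-46000100 and chr8:45999851-45999880 on the minus strand. In P4ha1 the match begins 16 bases before the start, at chr10:59323266-59323295 on the plus strand.
Ankrd37, far match: cccagcagtACGTGcctagctcggctcgca
Ankrd37, near match: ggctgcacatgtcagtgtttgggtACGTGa
P4ha1: ggtgtgacagagcgCACGTagcgagggctg

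All 10 genes stood lower in the fusion arrays than in the MIG arrays. The median difference, mean of the 3 fusion constructs minus MIG, was −0.89 on the log2 scale, against 0.01 over all 19938 genes. Of all probe sets with a gene symbol, 48.3% were lower. Bnip3 differed most, by −1.19 (SE 0.29, 2.29-fold lower), and Narf least, by −0.50 (SE 0.13, 1.42-fold lower). For 4 genes, P4ha1, Ero1a, Ndrg1 and Ankrd37, every fusion array lay below every MIG array, as was the case for 0.594% of the 23410 probe sets with a gene symbol. The genes were chosen with this contrast in view, so nothing is read from the counts. In bulk samples of this kind, fewer cells that express a gene and less RNA per cell cannot be told apart.

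**Figure D1:**
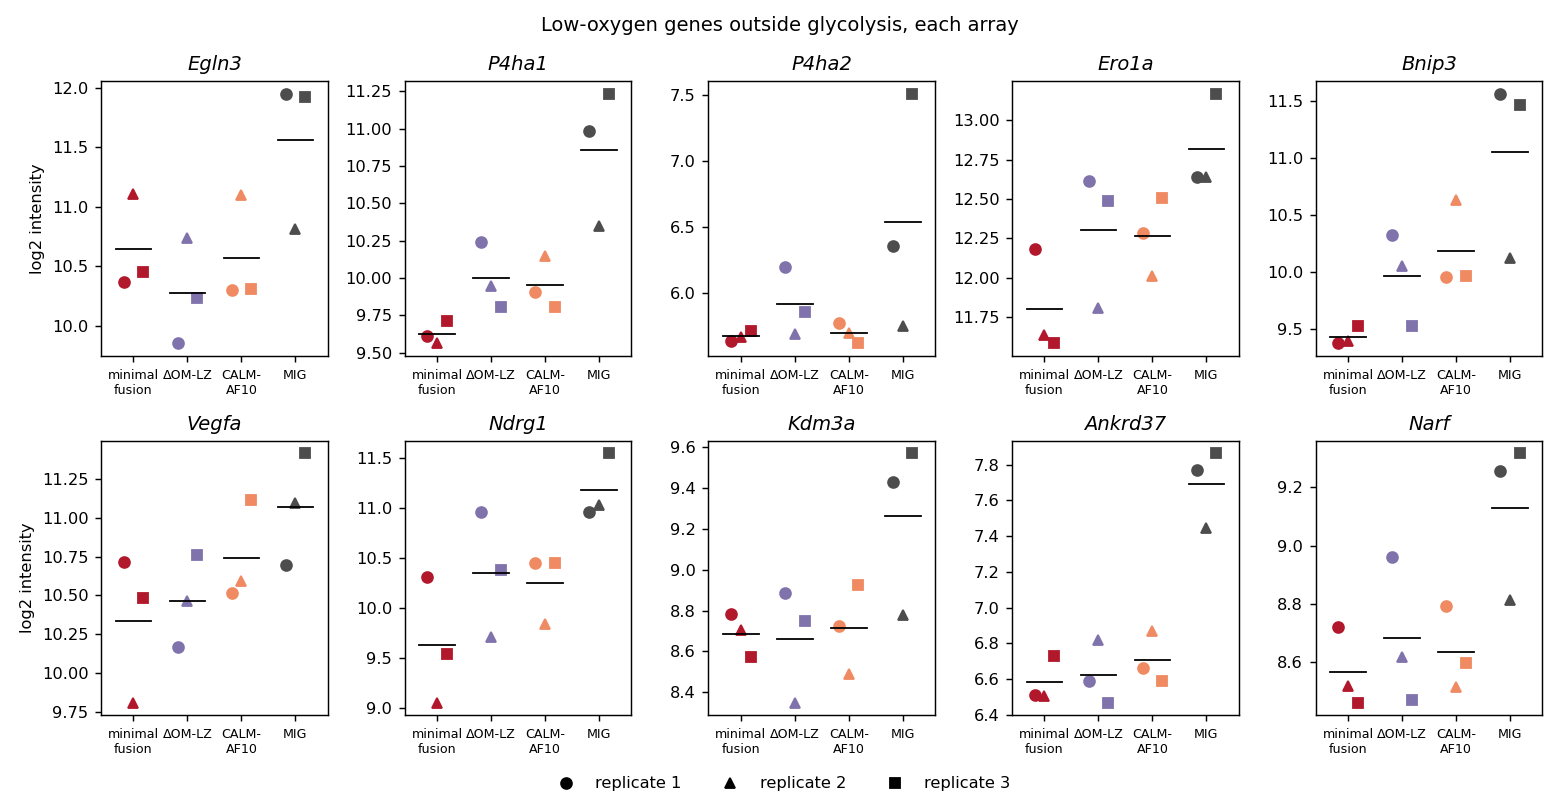
Each panel plots 1 gene, with log2 intensity on the vertical axis (a range of its own per gene) and the 4 constructs on the horizontal axis; symbols mark replicates 1 to 3 and bars the group means of 3 arrays. In MIG, replicate 2 (triangle) was the lowest array for 8 of the 10 genes and replicate 3 (square) the highest for 8.

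Egln3 encodes the prolyl hydroxylase PHD3, which modifies the HIF alpha subunit and is itself induced by it. Its log2 values were 10.37, 11.11 and 10.45 in minimal fusion arrays, 9.85, 10.74 and 10.24 in ΔOM-LZ arrays and 10.30, 11.10 and 10.31 in CALM-AF10 arrays, against 11.95, 10.81 and 11.92 in MIG arrays (replicates 1 to 3 in each group). Within every fusion construct replicate 2 was the highest, and in MIG it was the lowest, so the groups overlapped through the replicate 2 arrays alone. The fusion arrays averaged 10.50 (SD 0.41, n = 9) and the MIG arrays 11.56 (SD 0.65, n = 3), a difference of −1.06 (SE 0.29).

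The next genes act on collagen and on disulfide bonds in the endoplasmic reticulum. P4ha1 and P4ha2 encode the alternative catalytic subunits of collagen prolyl 4-hydroxylase, which stabilizes the collagen helix. P4ha1 had 9.61, 9.56 and 9.71 in minimal fusion arrays, 10.24, 9.95 and 9.80 in ΔOM-LZ arrays and 9.91, 10.15 and 9.81 in CALM-AF10 arrays, against 10.98, 10.35 and 11.23 in MIG arrays. The highest fusion array fell 0.11 short of the lowest MIG array, and the difference was −0.995 (SE 0.165, 1.99-fold lower). Minimal fusion arrays were the tightest group and lay below every array of the other constructs.

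P4ha2 had 5.64, 5.67 and 5.71 in minimal fusion arrays, 6.19, 5.69 and 5.86 in ΔOM-LZ arrays and 5.77, 5.70 and 5.62 in CALM-AF10 arrays, against 6.36, 5.75 and 7.51 in MIG arrays. MIG replicate 2 sat among the fusion arrays, and the MIG range of 1.77 was the widest of any single construct among the 10 genes. The difference of −0.78 (SE 0.27) became −0.29 without MIG replicate 3 and −1.17 without MIG replicate 2. All P4ha2 values but that of MIG replicate 3 lay below the array medians, and it was the gene that a filter on dim probe sets removed.

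Ero1a encodes the oxidase that recharges protein disulfide isomerase. It had 12.18, 11.64 and 11.58 in minimal fusion arrays, 12.62, 11.81 and 12.49 in ΔOM-LZ arrays and 12.28, 12.01 and 12.51 in CALM-AF10 arrays, against 12.64, 12.64 and 13.17 in MIG arrays. The groups were separated by only 0.02, and the difference was −0.69 (SE 0.20, 1.62-fold lower).

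Bnip3, a protein of the outer mitochondrial membrane that promotes mitophagy and cell death, was measured by a pair of probe sets. The brighter had 9.37, 9.39 and 9.52 in minimal fusion arrays, 10.33, 10.05 and 9.52 in ΔOM-LZ arrays and 9.95, 10.63 and 9.97 in CALM-AF10 arrays, against 11.57, 10.12 and 11.46 in MIG arrays. MIG replicates 1 and 3 were far above all other arrays, while replicate 2 lay within the ΔOM-LZ and CALM-AF10 values. The dimmer probe set ran alike, with a difference of −1.27 (SE 0.28, 2.41-fold lower). Against MIG the brighter one stood 3.08-fold lower in the minimal fusion, 2.12-fold lower in ΔOM-LZ and 1.82-fold lower in CALM-AF10.

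Vegfa encodes the secreted growth factor that drives vessel formation. Its log2 values were 10.71, 9.81 and 10.48 in minimal fusion arrays, 10.17, 10.47 and 10.76 in ΔOM-LZ arrays and 10.51, 10.60 and 11.11 in CALM-AF10 arrays, against 10.70, 11.10 and 11.41 in MIG arrays. MIG replicates 1 and 2 lay within the fusion values, and the difference was −0.56 (SE 0.22, 1.47-fold lower). For CALM-AF10 alone it was −0.33.

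Ndrg1 is a stress-responsive protein of the cytoplasm. It had 10.30, 9.05 and 9.54 in minimal fusion arrays, 10.96, 9.71 and 10.38 in ΔOM-LZ arrays and 10.45, 9.84 and 10.45 in CALM-AF10 arrays, against 10.97, 11.03 and 11.55 in MIG arrays. The fusion arrays spanned 1.92, the widest span of the 10 genes, with replicate 2 lowest in each construct. ΔOM-LZ replicate 1 came within 0.003 of the lowest MIG array. The difference was −1.11 (SE 0.30, 2.15-fold lower).

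Kdm3a encodes a demethylase of histone H3 lysine 9. It had 8.78, 8.70 and 8.57 in minimal fusion arrays, 8.88, 8.35 and 8.75 in ΔOM-LZ arrays and 8.72, 8.49 and 8.93 in CALM-AF10 arrays, against 9.43, 8.78 and 9.57 in MIG arrays. MIG replicate 2 lay within the fusion values, the other MIG arrays above them. The difference was −0.57 (SE 0.17, 1.49-fold lower).

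Ankrd37, a small ankyrin repeat protein, separated the groups most widely. It had 6.51, 6.50 and 6.73 in minimal fusion arrays, 6.59, 6.82 and 6.47 in ΔOM-LZ arrays and 6.66, 6.87 and 6.59 in CALM-AF10 arrays, against 7.77, 7.44 and 7.86 in MIG arrays. The highest fusion array lay 0.57 below the lowest MIG array, and the difference of −1.05 (SE 0.11, 2.08-fold lower) ran from −1.18 to −0.97 when any 1 array was left out. The fusion means lay within 0.13 of each other.

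Narf, which binds the prenylated tail of prelamin A in the nucleus, had 8.72, 8.52 and 8.46 in minimal fusion arrays, 8.96, 8.62 and 8.47 in ΔOM-LZ arrays and 8.79, 8.51 and 8.60 in CALM-AF10 arrays, against 9.26, 8.82 and 9.32 in MIG arrays. Replicate 1 was highest in each fusion construct. Of the fusion arrays, ΔOM-LZ replicate 1 alone lay above MIG replicate 2, and the difference was −0.50 (SE 0.13).

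**Figure D2:**
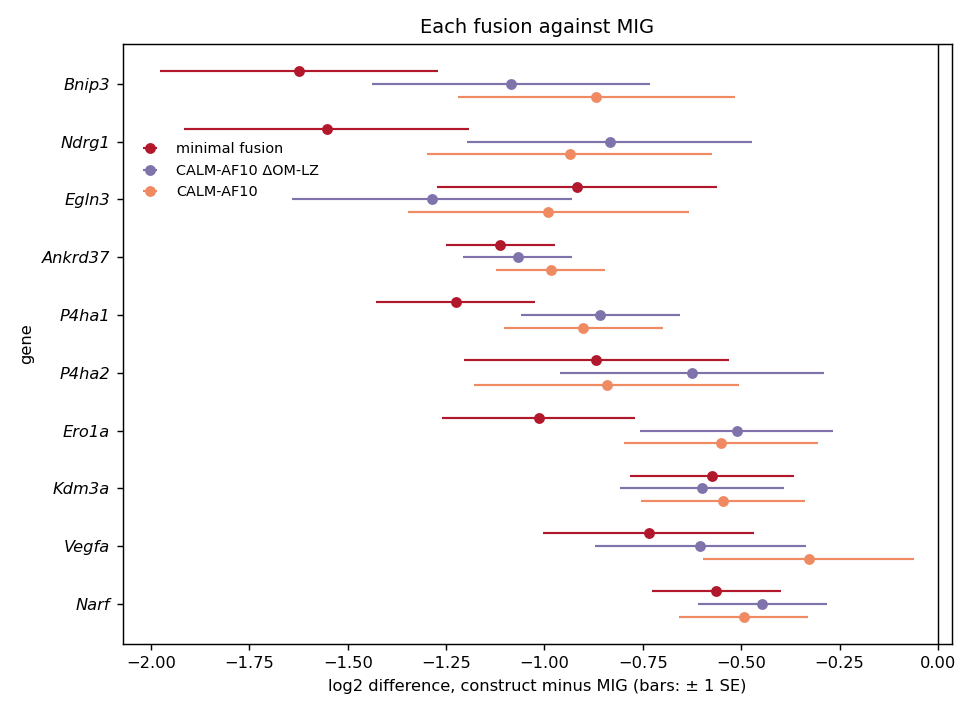
Points give the log2 difference of each construct from MIG (horizontal axis) for the 10 genes (vertical axis), with bars of ± 1 SE from the fit over 12 arrays. All points lie left of 0, from −1.62 for Bnip3 in the minimal fusion to −0.33 for Vegfa in CALM-AF10, and the constructs share the same 3 MIG arrays.

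By construct, the median difference from MIG was −0.97 in the minimal fusion, −0.73 in ΔOM-LZ and −0.86 in CALM-AF10, and all 10 genes were lower in each (48.8%, 47.7% and 49% of all probe sets were lower against MIG in the same order of constructs). The arrays did not overlap with MIG for 7 genes in the minimal fusion, 5 in ΔOM-LZ and 5 in CALM-AF10. Of all probe sets tested, 6% lay wholly below MIG in the minimal fusion, 4.47% in ΔOM-LZ and 3.26% in CALM-AF10. These comparisons share their MIG arrays and are not independent of each other. P4ha1, Ero1a, Ndrg1 and Ankrd37 were non-overlapping in all 3 constructs. The minimal fusion added P4ha2, Bnip3 and Narf, ΔOM-LZ added Egln3, and CALM-AF10 added Narf.

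No gene of the set passed a test between fusion constructs. By limma, 0 of 10 genes passed the adjusted p of 0.05 between the minimal fusion and ΔOM-LZ (0.0171% of probe sets did), with a smallest adjusted p of 0.9995. Between the minimal fusion and CALM-AF10 the count was 0 (0.00427% of probe sets), with a smallest adjusted p of 0.9999, and between ΔOM-LZ and CALM-AF10 it was 0 (0% of probe sets), also with 0.9999. The F test of any difference among the 3 fusions called 0 of the genes (0.0128% of probe sets). In each of these 4 tests 0 of the genes had an unadjusted p under 0.05, where 4.1%, 1.8%, 2.26% and 2.56% of probe sets did in the same order, and limma with trend and robust variance also called 0.

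The intervals leave room for differences of some size. Bnip3 averaged 9.43 in minimal fusion arrays (SD 0.08) and 10.18 in CALM-AF10 arrays (SD 0.39), a difference of −0.76 with a 95% interval of −1.53 to 0.02. Its groups did not overlap, with a gap of 0.43. Ndrg1 averaged 9.63 in minimal fusion arrays (SD 0.63) and 10.35 in ΔOM-LZ arrays (SD 0.63), a difference of −0.72 with an interval of −1.52 to 0.08. For Ero1a the minimal fusion differed by −0.50 from ΔOM-LZ (interval −1.05 to 0.04) and by −0.46 from CALM-AF10 (interval −1.01 to 0.08). P4ha1 was non-overlapping and lower in the minimal fusion against both, with a difference of −0.37 from ΔOM-LZ (interval −0.82 to 0.08) and of −0.32 from CALM-AF10 (interval −0.77 to 0.12).

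The minimal fusion had the lowest mean of the 3 fusions for 8 genes and ΔOM-LZ for the other 2, Egln3 and Kdm3a. The share of all probe sets with the minimal fusion lowest was not computed. The genes share the same arrays, so nothing is read from this count. Against CALM-AF10, the minimal fusion was lower for 9 of 10 genes (52.3% of probe sets; median −0.23, all genes −0.01) and wholly below it for 2, P4ha1 and Bnip3, as for 3.32% of probe sets. Against ΔOM-LZ it was lower for 8 (49.8% of probe sets; median −0.19) and wholly below it for 1, P4ha1, as for 4.09%. ΔOM-LZ and CALM-AF10 differed by a median of −0.01, with 5 genes lower (51.2% of probe sets), 5 higher and 0 non-overlapping (6.76% of probe sets). Egln3 averaged 10.64 in the minimal fusion, 10.28 in ΔOM-LZ and 10.57 in CALM-AF10.

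Same-numbered arrays of ΔOM-LZ and CALM-AF10 deviated together over all genes (r from 0.63 to 0.79 for the 3 numbers). No other pair of constructs did so for all 3 numbers. For numbers 1, 2 and 3 the minimal fusion had r of 0.64, 0.36 and −0.27 with CALM-AF10. With ΔOM-LZ it had 0.59, 0.17 and −0.18. Pairs with MIG reached at most 0.09. A paired fit of the 6 ΔOM-LZ and CALM-AF10 arrays left 2 residual degrees of freedom and called 0 of the 10 genes. It called 1 of the 23410 probe sets (0.00427%). In it Vegfa differed by −0.28 (SE 0.08, limma adjusted p = 0.274) and Egln3 by −0.30 (SE 0.10, limma adjusted p = 0.297). Ankrd37 differed by −0.08 (SE 0.07, limma adjusted p = 0.617). Vegfa, Egln3 and Ankrd37 were lower in ΔOM-LZ in every numbered pair. The share of all probe sets of which this holds was not computed, so nothing is read from it.

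The distance to MIG rested mainly on MIG replicates 1 and 3. A score per array, found by centring each gene on its 12-array mean and averaging the 10 genes, ran from −0.48 to 0.00 in the fusion arrays and was 0.69, 0.21 and 1.03 in MIG replicates 1, 2 and 3. MIG replicate 3 lay above all fusion arrays for 10 genes, replicate 1 for 9 (all but Vegfa) and replicate 2 for 4. Of all probe sets, 11.7% lay above all fusion arrays in MIG replicate 3, 6.55% in replicate 1 and 14.1% in replicate 2. These counts belong to the contrast by which the genes were chosen, and nothing is read from them. The median difference of fusions from MIG became −1.18 without MIG replicate 2 and −0.66 without MIG replicate 3. For CALM-AF10 alone it became −0.53 without MIG replicate 3.

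MIG arrays differed in other genes as well. The mean log2 level of 10 mast cell genes was 9.33, 8.73 and 8.97 in minimal fusion arrays, 11.02, 9.61 and 9.59 in ΔOM-LZ arrays and 10.67, 9.12 and 9.39 in CALM-AF10 arrays, against 9.41, 9.77 and 11.56 in MIG arrays. Megakaryocyte genes, 8 measured, averaged 7.45 to 9.13 in fusion arrays, against 8.07, 9.35 and 9.26 in MIG arrays. All 8 were lower in the fusions (48.3% of probe sets were), with a median difference of −0.66. Monocyte and macrophage genes averaged 8.55 to 10.45 in fusion arrays, against 9.27, 10.45 and 8.76 in MIG arrays. Neutrophil genes averaged 9.46 to 11.10, against 10.43, 10.64 and 9.69. In both of these lists MIG replicate 2 was highest and replicate 3 lowest, the reverse of the score of the 10 genes. The part of any of these cells in the values of the 10 genes was not tested. Glycolysis genes, 22 measured, averaged 10.07 to 10.49 in fusion arrays, against 10.89, 10.31 and 10.94 in MIG arrays, and so placed MIG replicate 2 within the fusion range as Bnip3, Egln3, P4ha2, Kdm3a, Vegfa and Narf did.

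**Figure D3:**
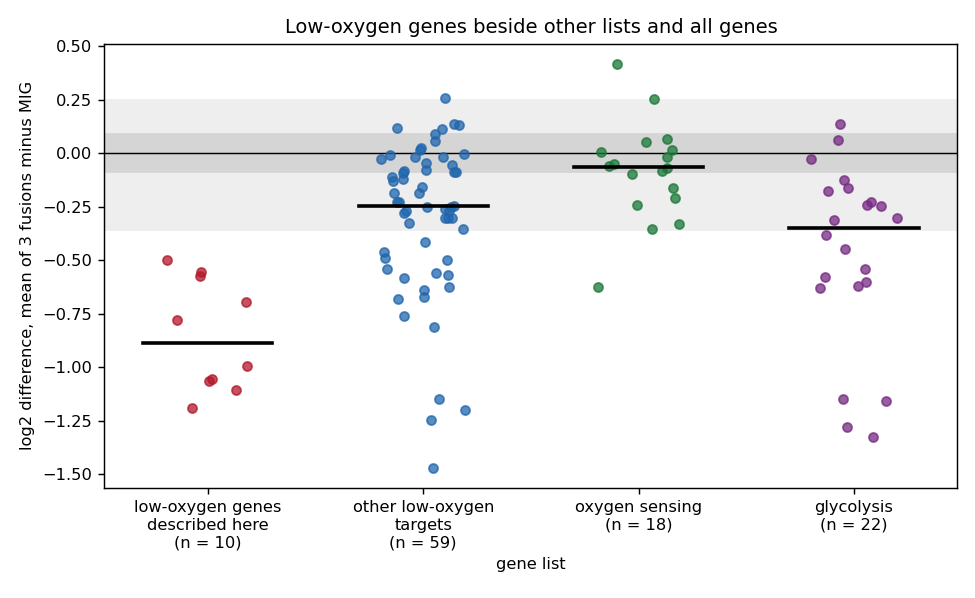
Each point is a gene, placed by its log2 difference between the mean of the 3 fusions and MIG (vertical axis), in 4 gene lists; black bars are list medians, and grey bands hold the central range of all genes between the percentiles 25 and 75 (dark) and 5 and 95 (light). The 10 genes lie between −1.19 and −0.50, all below the 5th percentile of −0.36, and the medians are −0.89, −0.25 for other targets, −0.07 for oxygen sensing and −0.35 for glycolysis. The 10 genes were chosen with this contrast in view, so their place is a description.

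Other genes of the low-oxygen response were counted from a wider list of targets and of the oxygen sensing machinery, of which 75 of 77 had a probe set with a single symbol. The list was drawn up with earlier results of these data known, and its comparisons use the same MIG arrays as the 10 genes. Of these 60 stood lower and 15 higher in the fusions than in MIG (48.3% of probe sets were lower), with a median of −0.19 (all genes 0.01). By limma 0 passed (0.00427% of probe sets did), the smallest adjusted p being 0.251. At an unadjusted p under 0.05 there were 21 lower and 2 higher, where 6.87% of all probe sets had such a p and 3.23% had it with the fusions lower. The 59 targets held 50 lower and 9 higher genes (median −0.25) and ran from −1.47 to 0.26. The 18 sensing genes held 12 lower and 6 higher (median −0.07).

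Nos2, the inducible nitric oxide synthase of macrophages, had the lowest statistic among the targets. Its values were 6.04, 5.96 and 6.23 in minimal fusion arrays, 6.05, 6.48 and 6.23 in ΔOM-LZ arrays and 5.99, 6.41 and 6.33 in CALM-AF10 arrays, against 7.26, 6.91 and 6.84 in MIG arrays. The groups did not overlap, and the difference of −0.81 (SE 0.13) did not pass (limma adjusted p = 0.251). Ppp1r3b, a glycogen-targeting subunit of protein phosphatase, also separated the groups, with 6.92 to 7.28 in fusion arrays and 7.52 to 7.70 in MIG arrays and a difference of −0.46 (SE 0.09, limma adjusted p = 0.277). At the other end stood Higd1a, a mitochondrial protein, by 0.26 (SE 0.15) and Tgfb3, a growth factor, by 0.11 (SE 0.07), with limma adjusted p of 0.789 and 0.821. The Higd1a difference was 0.11 without MIG replicate 2 and 0.44 without MIG replicate 3.

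Pdk1, a pyruvate dehydrogenase kinase, was the gene of this wider list that passed when 1 array was left out. It had 9.10, 9.21 and 9.36 in minimal fusion arrays, 8.67, 8.91 and 8.64 in ΔOM-LZ arrays and 9.06, 9.23 and 9.12 in CALM-AF10 arrays, against 9.99, 8.89 and 9.85 in MIG arrays. On all arrays the difference was −0.54 (SE 0.19, limma adjusted p = 0.591). Without MIG replicate 2 it was −0.88 (SE 0.11, limma adjusted p = 0.0362), and for ΔOM-LZ alone −1.18 (SE 0.12, limma adjusted p = 0.0318). For the fusions together it was −0.33 (SE 0.20, limma adjusted p = 0.671) without MIG replicate 1. Without MIG replicate 3 it was −0.40 (SE 0.22, limma adjusted p = 0.9999). MIG replicate 2 lay below every minimal fusion and CALM-AF10 array, so the pass depended on leaving out that array.

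Among the sensing genes, Egln1, the prolyl hydroxylase PHD2 that mainly sets HIF levels at normal oxygen, stood lowest. It had 8.97, 9.39 and 9.10 in minimal fusion arrays, 9.11, 9.14 and 9.19 in ΔOM-LZ arrays and 9.04, 9.52 and 9.25 in CALM-AF10 arrays, against 10.09, 9.24 and 10.11 in MIG arrays. As for Egln3, MIG replicate 2 lay among the fusion arrays, and the difference of −0.62 (SE 0.18) did not pass (limma adjusted p = 0.508). The third hydroxylase gene, Egln2, ran the other way, by 0.26 (SE 0.11, limma adjusted p = 0.701).

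The genes of the factor's own subunits did not pass. Hif1a, the alpha subunit of HIF-1, stood at 11.15, 11.45 and 10.99 in minimal fusion arrays, 11.70, 11.21 and 11.65 in ΔOM-LZ arrays and 11.39, 11.50 and 11.90 in CALM-AF10 arrays, against 11.46, 11.91 and 11.94 in MIG arrays. The difference of −0.33 (SE 0.16) did not pass (limma adjusted p = 0.754), and HIF alpha subunits are regulated chiefly as proteins, which arrays do not show. Its partner gene Arnt differed by −0.16 (SE 0.10) and Arnt2 by −0.10 (SE 0.29). The other alpha subunit genes Epas1 and Hif3a differed by −0.06 (SE 0.16) and −0.24 (SE 0.11). Hif1an, which hydroxylates an asparagine of the alpha subunit, differed by 0.05 (SE 0.13).

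Components that degrade the alpha subunit went both ways. Vhl differed by −0.21 (SE 0.11) and the scaffold gene Cul2 by −0.36 (SE 0.24), while Rbx1, the ring finger subunit of the ligase, differed by 0.42 (SE 0.18). Elob and Eloc, the elongins of the complex, differed by 0.06 (SE 0.09) and 0.01 (SE 0.10). The coactivators Ep300 and Crebbp stood at −0.08 (SE 0.12) and −0.05 (SE 0.12), and Cited2, which competes with HIF for them, at −0.02 (SE 0.15). The ligase genes Siah1a and Siah2, which act on the prolyl hydroxylases, stood at 0.01 (SE 0.12) and −0.07 (SE 0.08). Of the 18 sensing genes 0 passed by limma, the smallest adjusted p being 0.508 (2 lower and 2 higher at an unadjusted p under 0.05). The small differences of Epas1, Hif1an, Elob, Eloc, Cited2 and Siah1a changed sign when 1 of the MIG arrays was left out.

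Across all 12 arrays the 10 genes varied together. All 45 pairs had a positive Pearson r over the 12 arrays, from 0.22 to 0.97 with a median of 0.72. These values contain the distance to MIG by which the genes were chosen. Over the 9 fusion arrays, which leave that contrast out, 29 pairs were positive and 16 negative, with a median of 0.32, and 7 of the negative pairs involved Egln3.

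**Figure D4:**
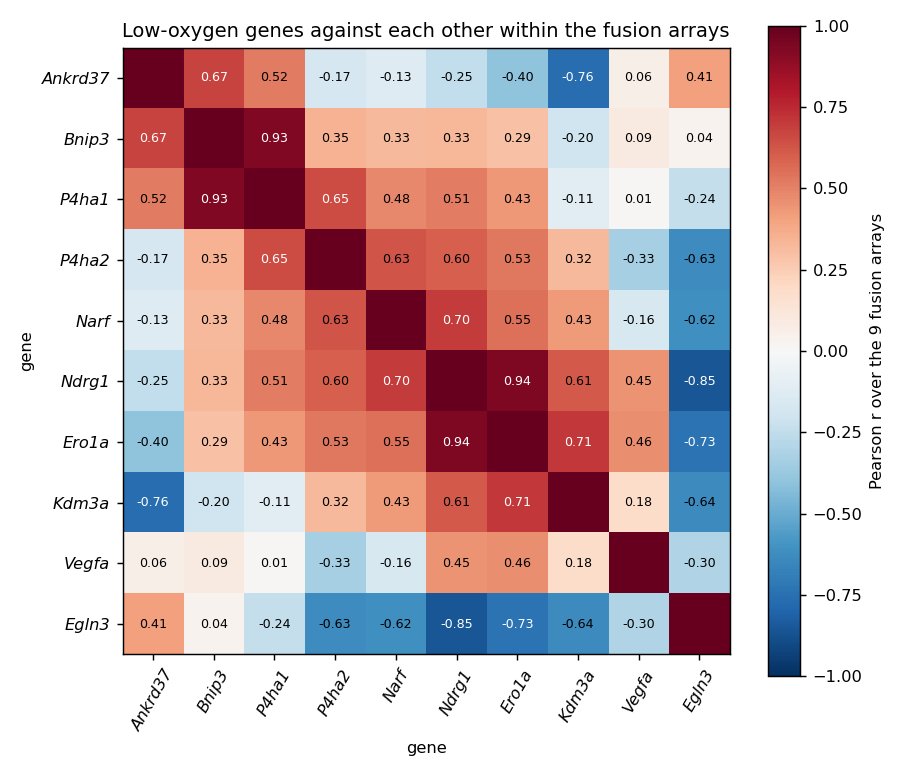
Each cell gives Pearson r between the genes named on the 2 axes over the 9 fusion arrays, from −1 (blue) to 1 (red). Ero1a and Ndrg1 (0.94) and Bnip3 and P4ha1 (0.93) are the highest pairs, and Egln3 with Ndrg1 (−0.85) the lowest.

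Within the fusion arrays some pairs of genes varied together and others ran apart. Ero1a and Ndrg1 varied together (r = 0.94, Spearman rho = 0.93, n = 9), as did Bnip3 and P4ha1 (r = 0.93, rho = 0.95). Egln3 ran opposite to Ndrg1 (r = −0.85, rho = −0.88). Without the 2 arrays farthest from the median of the first-named gene these became 0.92, 0.91 and −0.87, and with construct means removed 0.91, 0.93 and −0.91. Kdm3a and Ankrd37 had r = −0.76 (rho = −0.60). It became −0.36 without the 2 farthest arrays and −0.87 with construct means removed, so these checks went different ways. The arrays share constructs. Same-numbered arrays of ΔOM-LZ and CALM-AF10 also deviated together, as in part did those of the minimal fusion. The 9 points are therefore not independent and no p is given.

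**Figure D5:**
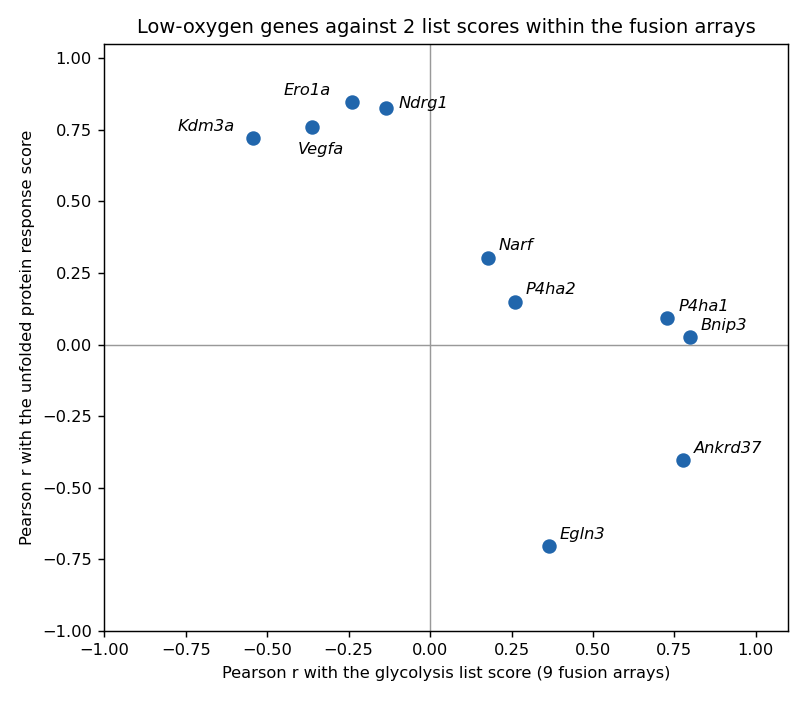
Points are the 10 genes, placed by Pearson r over the 9 fusion arrays with the mean level of 22 glycolysis genes (horizontal axis) and of 11 unfolded protein response genes (vertical axis). Bnip3, Ankrd37 and P4ha1 lie at the right (0.73 to 0.80) and Ero1a, Ndrg1, Vegfa and Kdm3a at the top (0.72 to 0.85).

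The 3 genes with the highest r with the glycolysis genes within the fusion arrays were Bnip3, Ankrd37 and P4ha1. Their r with the glycolysis list was 0.80, 0.78 and 0.73 (rho 0.64, 0.67 and 0.58), which became 0.42, 0.84 and 0.32 without the 2 arrays farthest from the median of the list. The relations of Bnip3 and P4ha1 thus rested on those arrays. Over construct-centred values r was 0.96, 0.78 and 0.84. Kdm3a ran against the glycolysis list (r = −0.54, rho = −0.55), with −0.87 without the 2 farthest arrays and −0.57 over construct-centred values.

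Ero1a, Ndrg1, Vegfa and Kdm3a had the highest r with genes of the unfolded protein response, which answers to misfolded proteins in the endoplasmic reticulum. Their r with that list of 11 genes, none of them among the 10, was 0.85, 0.83, 0.76 and 0.72 (rho 0.73, 0.70, 0.85 and 0.78). Without the 2 farthest arrays it was 0.77, 0.65, 0.64 and 0.85. Egln3 ran against it (r = −0.70), with −0.47 without those arrays. The list was led in range by Trib3, Ddit3 and Chac1, which the stress factor ATF4 induces. Trib3 had 10.71, 7.72 and 8.75 in minimal fusion arrays, 10.03, 7.91 and 10.73 in ΔOM-LZ arrays and 10.37, 8.53 and 11.15 in CALM-AF10 arrays, against 9.67, 10.86 and 10.58 in MIG arrays. Replicate 2 was the lowest array of each fusion construct, as it was for Ndrg1. Genes with a high r with this list did not all vary with each other. Vegfa had r = 0.46 with Ero1a, 0.45 with Ndrg1 and 0.185 with Kdm3a. With the defining blood cell genes, Ero1a and Ndrg1 had r of 0.83 and 0.75. No grouping of the genes was tested.

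Some of the genes had a high r with lists of cell type genes over the fusion arrays. The values given here were picked from those of every gene and list. Narf had r = 0.88 with the megakaryocyte list (0.73 without the 2 farthest arrays) and 0.87 with the mast cell list (0.36 without them). Ndrg1 had 0.80 with the mast cell list (0.75 without them) and Egln3 −0.73 (−0.58 without them). P4ha2 had 0.77 with the mast cell list and 0.83 with the monocyte and macrophage list, and these became 0.31 and −0.20 without the 2 farthest arrays. Ero1a had 0.83 with the defining blood cell genes, whose mean level ran from 11.23 to 11.61 in fusion arrays and from 11.35 to 11.56 in MIG arrays. The T and NK cell list gave r of like size, although 0 of its 7 genes lay above the highest array median on every array. With it Kdm3a had −0.865, Ero1a −0.74, Ndrg1 −0.675 and Ankrd37 0.67. Nothing about cell makeup is read from the r values of any list. Whether cell makeup has a part in the levels of these genes was not tested.

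Genes outside the set with the most similar pattern over the 12 arrays were found by correlation with the score of the 10 genes. Out of 19928 genes the highest r was that of Bnip3l (0.95), the mitophagy receptor closest to Bnip3, followed by Mgarp (0.94), a mitochondrial protein, Tspan8 (0.94), a tetraspanin, and Ccng2 (0.94), an atypical cyclin. Ddit4, an inhibitor of mTOR signalling, had 0.92, and Epb41l5, Selenbp1, Prelid2, Epm2a and Kdelr3 had 0.90 to 0.91. Of these 10 genes 4 stand in the wider low-oxygen list (Bnip3l, Ccng2, Ddit4 and Selenbp1) and 0 in the glycolysis list, while 6 of the 50 most similar genes do. Of the 19938 genes with a single-symbol probe set, 75 stand in the wider low-oxygen list and 22 in the glycolysis list. The score holds the distance to MIG by which the set was chosen. Both lists were drawn up with earlier results known, so nothing is read from these counts.

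These most similar genes were selected for sharing the pattern, so their distance to MIG is a description. Bnip3l differed by −0.27 (SE 0.07) from a high level, with 12.12 to 12.36 in fusion arrays and 12.36 to 12.61 in MIG arrays. Mgarp had 4.64 to 4.92 in fusion arrays, against 6.41, 5.08 and 6.84 in MIG arrays, and was thus high in MIG replicates 1 and 3 and near the fusion level in replicate 2. Prelid2, a gene of a mitochondrial lipid transfer family, had 5.94 to 7.54 in fusion arrays, against 8.91, 7.02 and 9.17 in MIG arrays. Over the fusion arrays alone r with the score ran from 0.19 for Selenbp1 to 0.75 for Bnip3l.

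Glycolysis genes stood lower as well, 20 of 22 measured (48.3% of probe sets were lower), with a median of −0.35. By limma 0 passed the threshold (0.00427% of probe sets did). At an unadjusted p under 0.05 there were 11 lower, as were 3.23% of probe sets. This list too was drawn up with earlier results of these data known, and it uses the same MIG arrays. The glycolysis genes with the widest range were Eno2, Slc2a3 and Aldoc, an enolase, a glucose transporter and an aldolase. Eno2 differed by −1.33 (SE 0.44, limma adjusted p = 0.552). It had 6.08 to 7.42 in fusion arrays, against 7.21, 6.86 and 9.31 in MIG arrays, and without MIG replicate 3 the difference was −0.57 (SE 0.28). Aldoc differed by −1.28 (SE 0.36, limma adjusted p = 0.508) and Slc2a3 by −1.15 (SE 0.36, limma adjusted p = 0.542). Hk2, Pdk1, Pfkfb3, Pfkfb4 and Gys1 stand in this list and in the wider low-oxygen list.

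Paralogs and partners of the 10 genes that are not taken as low-oxygen genes were counted as well. Of 14 measured, among them P4hb, Ero1b, Vegfb and Kdm3b, 9 were lower (48.3% of probe sets were) and 5 higher. The median was −0.09 and the range −0.60 to 0.23. By limma 0 passed the threshold (0.00427% of probe sets did), and 2 were lower at an unadjusted p under 0.05 (3.23% of probe sets). The 10 genes were chosen with this contrast in view, so their distance to MIG is not set against that of this list. The difference between this list and the 10 genes was not tested.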

How the data were processed

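Expression was measured on Affymetrix arrays after whole-transcript sense labelling, per the labels' protocols, in 12 samples: 3 biological replicates of each of 4 constructs. Each array has 1 deposited log2 intensity per probe set. Per the submitters' processing notes the authors used Affymetrix Expression Console. Neither its version nor the summarization and scaling it applied is stated in the sources used here. That the scale is log2 was judged from the range of the values, 2.88 to 14.27, and they were used as deposited. With 3 arrays in a group, precision is limited by that number.

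The platform annotation gave a symbol to 23410 of 35556 probe sets: 21789 carried 1 symbol and 1621 several, and 12146 none. The 10 genes had 11 probe sets with 1 symbol. Levels of different probe sets were not set against each other. Tests used limma 3.58.1 under R 4.3.3 (lmFit and eBayes), fitting the 12 arrays with 1 mean per construct, which left 8 residual degrees of freedom. Two-sided p-values were adjusted (Benjamini-Hochberg) across all 23410 probe sets within a comparison, and 0.05 was the threshold. For the 10 genes, comparisons with MIG are given without a test, because these genes and all gene lists were chosen with earlier results of these data known. The fitting code was tested on simulated data.

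To see whether replicate numbers pair the arrays, each array's deviation from its group mean was correlated over all genes with that of the array of equal number in another group. They did between ΔOM-LZ and CALM-AF10 (r = 0.63 to 0.79). No label states this pairing, which was found in the values.

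Named were the 10 genes, every sensing gene, other low-oxygen targets past the threshold in any comparison or with the 2 highest and 2 lowest moderated statistics, the 10 genes of most similar pattern, and up to 3 genes of the other lists with the widest range over arrays. Alternatives were trend and robust variance, a replicate block, only the arrays of the groups compared, median centring or quantile normalization of the arrays, all probe sets of the file, a filter on dim probe sets, the mean of a gene's probe sets, and leaving out each array in turn. The paired fit of 6 arrays was added after seeing the data. Promoter windows came from RefSeq (GRCm38.p6).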

Additional observations from a re-analysis of the deposited data

How the results depend on the processing

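The count of the 10 genes that differed between fusion constructs was 0 under every alternative run, and no difference of theirs from MIG changed sign. The counts over all probe sets are small and moved. Between the minimal fusion and ΔOM-LZ 4 probe sets passed, against 8 with trend and robust variance, 17 over all probe sets of the file, 2 with median centring, 3 with the replicate block, 0 with only the arrays of these groups and 1 to 5 without 1 array. Between the minimal fusion and CALM-AF10 1 probe set passed, against 3 over all probe sets of the file, 0 with the replicate block, 0 with only the arrays of these groups and 0 to 1 without 1 array. Between ΔOM-LZ and CALM-AF10 0 passed, against 1 in the paired fit of the 6 arrays (replicate block), an alternative chosen after seeing the data. For none of these moves was the cause tested. The replicate block over the 12 arrays called 0 of the 10 genes and 0 other low-oxygen genes. Leaving out each MIG array for the genes named beside the 10 was also chosen after seeing the data. Without 1 array the median difference of the 10 genes from MIG ran from −1.18 to −0.66 for the fusions together, from −1.25 to −0.79 for the minimal fusion, from −0.97 to −0.55 for ΔOM-LZ and from −1.06 to −0.53 for CALM-AF10, the lowest value in each case without MIG replicate 2 and the highest without MIG replicate 3. The count of other low-oxygen genes past the threshold ran from 0 to 1 for the fusions together and for ΔOM-LZ, with Pdk1 passing without MIG replicate 2. A filter that kept the 12867 probe sets at or above the median level left 9 of the 10 genes and gave no value for P4ha2 or for the medians of the set. With 3 arrays per group, differences of the size shown by the intervals between fusion constructs could not be told from 0.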
